A study of Homo sapiens with 6 samples.

Results

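miR-192, miR-194 and miR-215 are epithelial miRNAs, and 5 of their arms were followed here in Panc-1 cells with and without TGF-β. The arms were taken by name, hsa-miR-192-5p, hsa-miR-192-3p, hsa-miR-194-5p, hsa-miR-194-3p and hsa-miR-215-5p, and each had a single probe among the 2565 miRNA probes of the array. Panc-1 is an established cell line from a human pancreatic ductal adenocarcinoma, and all arrays come from this single line. Total RNA of control cells, which received 0 ng/mL of TGF-β, was hybridised to 3 arrays. The other 3 arrays held RNA of cells exposed to TGF-β at 10 ng/mL over 72 h, and the labels name no other agent for either group. TGF-β is a secreted cytokine that induces epithelial-mesenchymal transition (EMT), the change of epithelial cells to a mesenchymal state, and the comparison asks which miRNAs differ after that treatment. The 5p arms of the group were detected on every array of both conditions. On the log2 scale of the fit they were 5.44% to 10.2% lower with TGF-β, and limma called none of them different. The sign turned for all 3 in the deposited values, with log2 differences of 0.0050 to 0.039, and for miR-194-5p and miR-215-5p with the local background (6.9e-05 and 0.011). The 3p arms were at the detection limit.

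The group is encoded as a pair of small clusters, each with a miR-194 gene beside miR-192 or miR-215, and each cluster is transcribed as one primary transcript. The mature miRNAs are known for high levels in liver, kidney and intestinal epithelium. miR-192 and miR-215 repress ZEB2, a transcription factor that silences E-cadherin in EMT. In kidney cells miR-192 has been studied as a miRNA that responds to TGF-β, with both rises and falls described. A miRNA precursor yields a 5p and a 3p strand, of which one is usually kept as the guide and the other is mostly degraded.

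The mature sequences are printed because the seed decides the targets and because the arms of miR-192 and miR-215 are nearly alike. They were taken from RefSeq, build GRCh38.p14, in which all 5 arms were found, and the seed (bases 2 to 8) is in capitals. The other arm of the miR-215 precursor, which also has a probe, is shown with them.
miR-192-5p: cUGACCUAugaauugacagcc
miR-215-5p: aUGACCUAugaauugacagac
miR-194-5p: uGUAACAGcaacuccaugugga
miR-192-3p: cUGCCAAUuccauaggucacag
miR-194-3p: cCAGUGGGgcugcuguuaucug
miR-215-3p: uCUGUCAUuucuuuaggccaaua

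miR-192-5p and miR-215-5p share the seed UGACCUA and are identical at 19 of 21 positions. The differences, counted from the 5′ end with the base of miR-192-5p first, are C1A and C20A, both outside the seed. Of the 2281 miRNAs on the array with a sequence in RefSeq, no other carries this seed. The next closest sequence differs from miR-192-5p at 9 positions without gaps and from miR-215-5p at 8. Whether the probe of either miRNA also binds the other is not stated in the files and was not tested. The seeds of miR-194-5p, miR-192-3p and miR-194-3p were in no other miRNA among the 2281.

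The genes lie on the minus strand of chromosomes 11 and 1. MIR192 (chr11:64891137-64891246) and MIR194-2 (chr11:64891355-64891439) have 108 bases between them and lie inside the lncRNA gene MIR194-2HG (chr11:64888458-64893449). MIR215 (chr1:220117853-220117962) and MIR194-1 (chr1:220118157-220118241) have 194 bases between them and lie inside the intervals of the lncRNA gene LOC124904515 and the protein-coding gene IARS2. The annotation used here gives gene intervals only, so exon or intron was not assigned. The mature miR-194-5p is the same from MIR194-1 and MIR194-2, and its probe therefore sums both clusters. miR-192-5p, miR-192-3p and miR-194-3p are listed for chromosome 11 alone, and miR-215-5p for chromosome 1 alone.

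The arrays were read in 1 colour, and each had 320 blank spots, whose mean was 18.2 to 21.3 intensity units and whose SD was 0.528 to 0.768 units after trimming. A miRNA was counted as detected above the blank mean plus 2 SD, which was the case for 1531 to 1787 miRNAs per array. Over the 1282 miRNAs detected on all arrays, log2 values of array pairs correlated at 0.984 to 0.992 across miRNAs, which are not independent replicates. The slide was read from the names of the scanner output, since the sample titles name none. By these names, 1 slide held the 3 control arrays and another the 3 TGF-β arrays, so the treatment cannot be told apart from the slide. The labels do not say whether the arrays of a group came from separate cultures, and p-values therefore measure the spread between these arrays, which may be technical. miR-21-5p, miR-221-3p and miR-222-3p, which are abundant in pancreatic cancer lines, were detected on every array. Of the epithelial markers, miR-200b-3p was detected on 6 arrays, miR-200c-3p on 1 and miR-141-3p on none. All 7 miRNAs of blood cells were detected on at least 2 arrays, with a summed level of 36.9 to 39.5 units in control and 31.9 to 42.6 units in TGF-β-treated cells, and their part in any result was not tested. The endothelial miR-126-3p and miR-126-5p and the islet miR-7-5p were also detected on every array, and the islet miR-375 on 1. miR-126-3p had a log2 difference of -0.32 between TGF-β and control (adjusted p = 0.042 from limma), a call that held in 7 of 23 alternative tests and was lost whichever array was left out.

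Detection separated the arms. Over the 6 arrays, miR-192-5p exceeded the blank mean by 47.6 to 71.9 SDs of the blank spots, miR-194-5p 50.8 to 81.1 SDs and miR-215-5p 11.1 to 16.1 SDs. All 3 passed the limit of 2 SD on every array, as did 1282 of the 2565 probes. miR-192-3p passed the limit on control replicate 2 alone, with 2.41 SDs, and lay between -1.22 and 1.35 SDs on the other arrays. miR-194-3p passed it on control replicate 2, with 3.01 SDs, and on TGF-β replicate 2, with 2.01 SDs, and reached 0.356 to 1.83 SDs elsewhere. miR-215-3p was detected on none of the arrays, as were 522 of the 2565 probes, and its highest value was 1.87 SDs. In all, 21 of the 30 member-array pairs were above the limit.

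**Figure D1:**
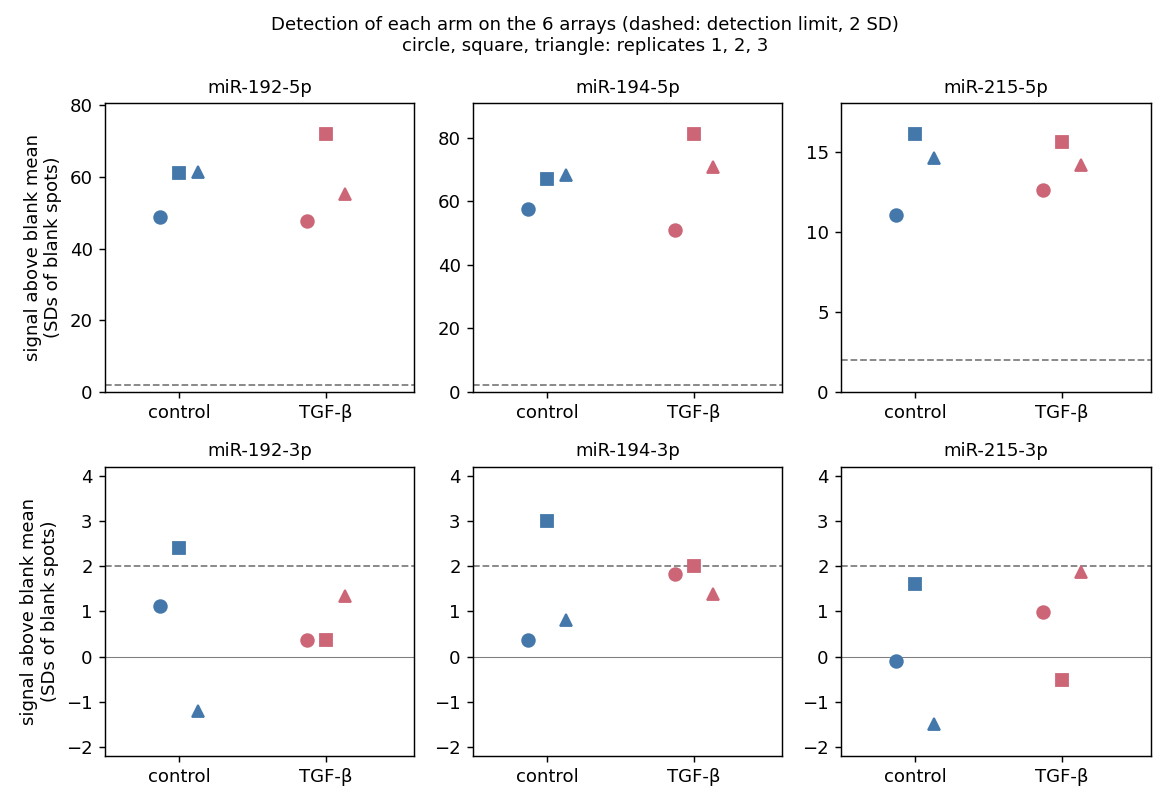
Signal of each arm above the mean of the blank spots, in SDs of the blank spots of the same array, for control (blue) and TGF-β (red) arrays, 1 point per array, without normalization. The dashed line is the detection limit of 2 SD. The 5p arms (upper row, axes from 0) are at 11.1 SDs or more on every array, and of the 3p arms (lower row) only miR-192-3p and miR-194-3p pass the limit, on 1 and 2 arrays.

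miR-192-5p, the guide strand of the chromosome 11 cluster, gave raw signals of 50.2, 57.2 and 68.5 intensity units on control replicates 1, 2 and 3. The raw signals on TGF-β replicates 1, 2 and 3 were 50.6, 56.8 and 58.5 units. After subtraction of the blank mean and quantile normalization between arrays, which puts the arrays on a common scale, its levels were 35.8, 40.7 and 41.2 units in control cells and 34.7, 35.3 and 35.5 units in TGF-β-treated cells. The control arrays all lay above the TGF-β arrays, but control replicate 1 exceeded the highest TGF-β array by 0.272 units only. Groups that did not overlap were found for 18.9% of all miRNAs tested, and for 10.2% with the TGF-β arrays as the lower group. The group means were 39.2 ± 2.99 units (SD, n = 3) and 35.2 ± 0.413 units (SD, n = 3). On the log2 scale, the difference of TGF-β from control was -0.15 (standard error 0.10), with an adjusted p of 0.558 from limma and the smallest exact permutation p (2-sided) that 3 arrays against 3 allow, 0.1. In RNA from a whole culture, fewer cells that make a miRNA and less of it per cell cannot be told apart. From the log2 difference the level was 10.2% lower, and the 95% interval ran from a level 22.9% lower to one 4.68% higher.

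miR-194-5p, which is made from both clusters, had normalized levels of 41.4, 44.3 and 45.5 units in control cells and 37.4, 39.4 and 47.9 units in TGF-β-treated cells. TGF-β replicates 1 and 2 were below all control arrays and TGF-β replicate 3 was above all of them, so that the groups overlapped. The means were 43.7 ± 2.11 units (SD, n = 3) and 41.6 ± 5.60 units (SD, n = 3). limma gave a log2 difference of -0.08 (standard error 0.11) with an adjusted p of 0.851, and the exact permutation test p = 0.6 (2-sided). The 95% interval of the change ran from 20.6% lower to 12.6% higher. Without TGF-β replicate 3 the log2 difference was -0.19, and without TGF-β replicate 1 it was -0.0057.

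miR-215-5p, the guide strand of the chromosome 1 cluster with the seed of miR-192-5p, had normalized levels of 7.99, 10.9 and 9.64 units in control cells and 8.87, 7.92 and 9.62 units in TGF-β-treated cells. TGF-β replicates 1 and 3 lay within the range of the control arrays and TGF-β replicate 2 just below it. The means were 9.51 ± 1.46 units (SD, n = 3) and 8.80 ± 0.851 units (SD, n = 3). limma gave a log2 difference of -0.10 (standard error 0.16) with an adjusted p of 0.863, and the exact permutation test p = 0.4 (2-sided). The 95% interval ran from 27.1% lower to 18.7% higher. This interval is the widest of those for the 5p arms. Without control replicate 2 the log2 difference was -0.00066 and without control replicate 1 it was -0.22.

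**Figure D2:**
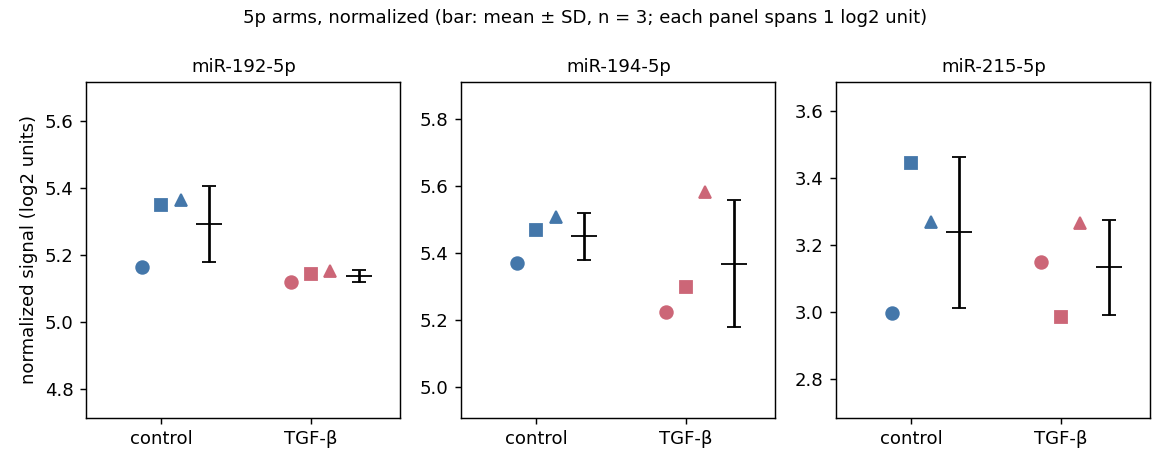
Normalized log2 signal of the 5p arms on each control (blue) and TGF-β (red) array, with replicates 1, 2 and 3 as circle, square and triangle and the mean ± SD of 3 arrays as a black bar. Each panel covers 1 log2 unit. The TGF-β arrays of miR-192-5p lie just below the lowest control array, and the groups overlap for miR-194-5p and miR-215-5p.

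limma called 0 of the 3 tested arms at an adjusted p under 0.05, and 0 passed 0.05 before adjustment. All 1457 miRNAs with detection on each array of 1 or both groups were tested together, of which 58 were called, or 3.98%, and 200 passed 0.05 before adjustment. By the methods' t-test, too, 0 of the 3 arms passed 0.05 before or after adjustment. All 3 differences were below 0, with a median of -0.10 on the log2 scale, compared with -0.013 over all miRNAs tested, of which 765 were below 0. The arms were also compared with each other in how they changed, over 3 pairs. The change of miR-192-5p differed from that of miR-194-5p by -0.07 on the log2 scale (95% interval -0.36 to 0.22) and from that of miR-215-5p by -0.05 (-0.36 to 0.26). The change of miR-194-5p differed from that of miR-215-5p by 0.02 (-0.34 to 0.38). The exact permutation tests of these pairs gave p = 0.8, 0.7 and 0.9 (2-sided), each 0.9 after Benjamini-Hochberg adjustment over the 3 pairs. Of these pairs, miR-192-5p and miR-215-5p alone set chromosome 11 against chromosome 1, since miR-194-5p comes from both clusters. Whether either probe also binds the other miRNA was not tested, so this pair may not separate the chromosomes. No difference in change was detected for that pair with these arrays, and its interval of -0.36 to 0.26 leaves room for differences in either direction.

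The passenger arms gave no usable comparison. miR-192-3p had normalized values of 0.849, 1.61 and -0.730 units in control cells and 0.194, 0.0493 and 0.932 units in TGF-β-treated cells, where values below 0 lie under the blank mean. The means were 0.576 ± 1.19 units (SD, n = 3) and 0.392 ± 0.473 units (SD, n = 3). miR-194-3p, which comes from MIR194-2 on chromosome 11, had 0.298, 1.98 and 0.576 units in control cells and 1.28, 0.898 and 0.948 units in TGF-β-treated cells. Its means were 0.950 ± 0.899 units (SD, n = 3) and 1.04 ± 0.210 units (SD, n = 3). The groups of both arms overlapped (exact permutation test, 2-sided p = 1 for each). No fold change is given for them, since neither was detected on every array of a group.

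The authors' deposited values give the detected miRNAs of an array a median of 25. For miR-192-5p they were 132, 164 and 159 for control and 130, 182 and 147 for TGF-β. The corresponding values of miR-194-5p were 155, 180 and 177 for control and 139, 205 and 188 for TGF-β. Those of miR-215-5p were 30, 43 and 38 for control and 35, 40 and 38 for TGF-β. TGF-β replicate 2 had the highest deposited value of all arrays for miR-192-5p and miR-194-5p. It was also the array with the most detected miRNAs, 1787, and the largest scaling factor, 4.78, compared with 3.37 to 4.31 for the others. On this scale the log2 differences were 0.0050 for miR-192-5p and 0.039 for both miR-194-5p and miR-215-5p, so that the sign turned for all 3 arms (adjusted p of 0.998, 0.974 and 0.979 from limma). When the deposited values were rescaled on the miRNAs with a value on all 6 arrays, the differences were -0.10, -0.07 and -0.07. This rescaling was added after seeing the data, and the cause of the turned sign was not tested.

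The local background of the scanner files was a large share of the signal of the spots. For miR-192-5p it was 0.611 to 1.02 of the signal over the 6 arrays, for miR-194-5p 0.608 to 1.18 and for miR-215-5p 0.517 to 0.962. The alternative with the local background in place of the blank spots used the normexp correction of limma with an offset of 50 units added. It thus changed the background and the offset together, and their parts were not tested. With it, the log2 difference of miR-192-5p was -0.16 (standard error 0.065, adjusted p = 0.987 from limma, unadjusted p = 0.045). That of miR-194-5p was 6.9e-05 and that of miR-215-5p was 0.011, and no miRNA was called. Over the 24 alternatives to the processing used here, the difference of miR-192-5p lay between -0.22 and 0.0050 and was below 0 in 23. Those of miR-194-5p and miR-215-5p lay between -0.19 and 0.039 and between -0.22 and 0.039, and each was below 0 in 22. The lowest adjusted p of any arm in any alternative was 0.379.

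**Figure D3:**
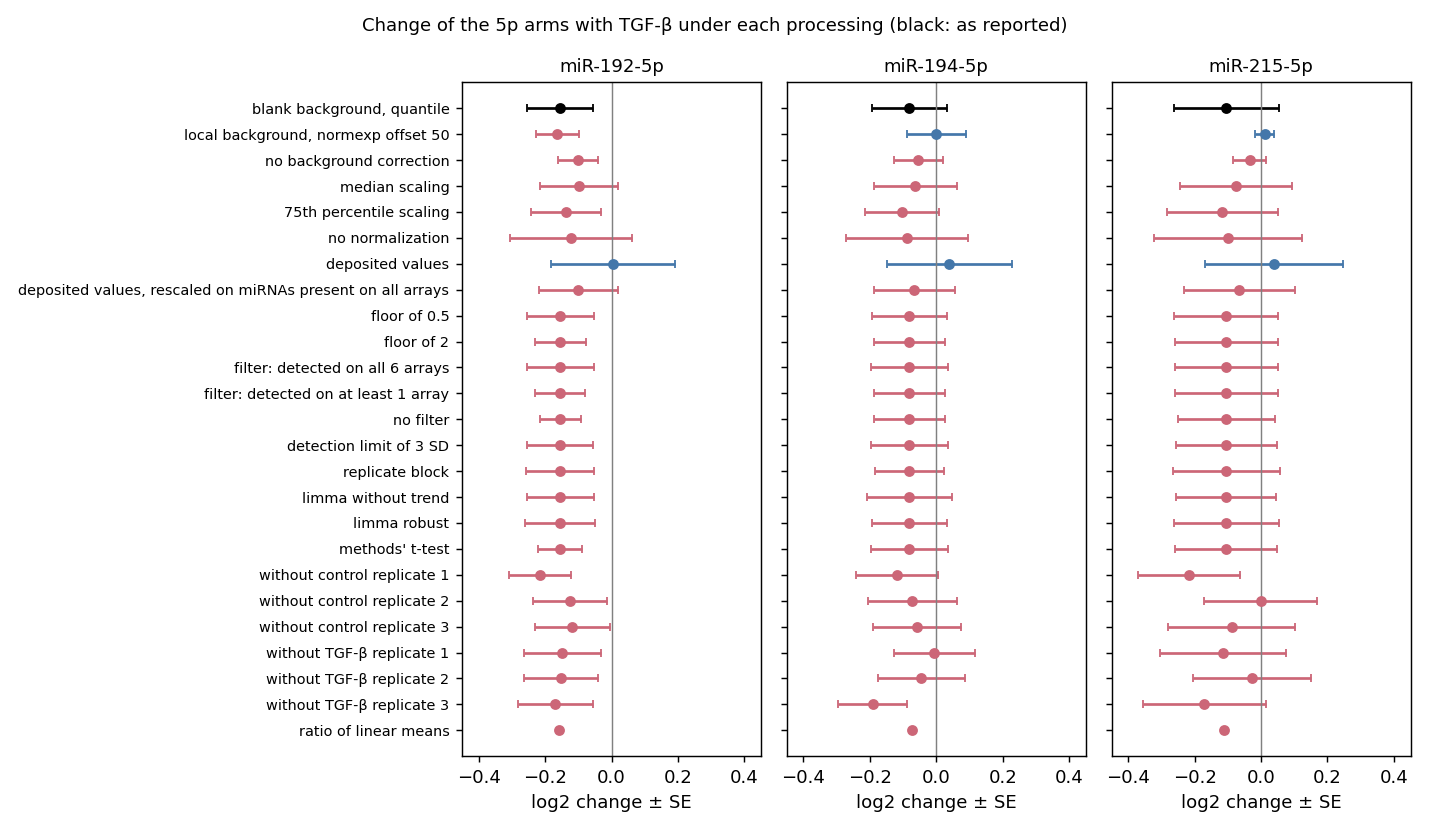
Log2 difference of TGF-β from control (horizontal axis, ± standard error where a test gives one) for the 5p arms under the reported processing (black, top) and each alternative, in red below 0 and in blue above 0. No arm passes an adjusted p of 0.05 in any of them, and the values above 0 are those of the deposited values and, for miR-194-5p and miR-215-5p, of the local background.

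The arms were set beside lists of other miRNAs. All lists were chosen with earlier results of these data known, so their counts are no independent evidence. Of the miR-34 family, whose members are known to restrain proliferation, some arms fell. Of 6 arms on the array 5 were tested, all 5 differences were below 0, with a median of -0.55 on the log2 scale, and limma called 3 of them lower, while 1.37% of all miRNAs tested were called lower. miR-34a-5p was at 199 ± 8.83 units (SD, n = 3) in control and, after TGF-β, at 127 ± 9.69 units (SD, n = 3), a log2 difference of -0.65 (standard error 0.083, adjusted p = 0.000833 from limma). miR-34a-3p and miR-34b-5p fell by 0.72 and 0.55 on the log2 scale (adjusted p of 0.019 and 0.013 from limma). Their log2 differences were -0.029 and -0.34 with the local background, where neither was called, and -0.24 and -0.36 without background correction. miR-34c-5p and miR-34c-3p differed by -0.21 and -0.28 and were not called; with single arrays left out they ran from -0.37 to -0.084 and from -0.53 to -0.042. They were at -0.068 and 0.0017 with the local background and at -0.097 and -0.028 without background correction, and miR-34c-5p was at -0.075 and miR-34c-3p at -0.19 with the deposited values. The calls of miR-34a-3p and miR-34b-5p held in 11 and 12 of 23 alternative tests and that of miR-34a-5p in 20, and with the local background miR-34a-5p was at 0.080. Each of these calls was also lost with the deposited values and with the methods' t-test. The calls of miR-34a-3p and miR-34b-5p were lost without control replicate 2 or 3 and without any one of the TGF-β replicates.

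Among the epithelial miRNAs, which repress ZEB1 and ZEB2 or mark epithelia, 3 of 7 were detected on every array, as were 1282 of the 2565 probes. None of these 3 was called by limma, beside 3.98% of all miRNAs tested, and 0 had an unadjusted p under 0.05. miR-200a-3p had a log2 difference of 0.22 (standard error 0.24), miR-200b-3p of -0.01 (0.15) and miR-203a-3p of 0.27 (0.37), with normalized levels of 2.01 to 7.67 units in control cells. Leaving out control replicate 1 turned miR-200a-3p to -0.066, and leaving out control replicate 2 gave 0.42. miR-203a-3p was at 0.056 without control replicate 2, 0.070 without TGF-β replicate 2 and 0.63 without TGF-β replicate 3. miR-200a-3p and miR-203a-3p were at 0.017 and -0.026 with the local background, at 0.042 and 0.032 without background correction, and at 0.36 and 0.42 with the deposited values. The sign of miR-200b-3p changed between alternatives, which ran from -0.092 to 0.093. miR-141-3p was detected on no array, miR-200c-3p and miR-205-5p on 1 each and miR-429 on 3. Of the 8 miRNAs of liver, pancreas and intestine, miR-148a-3p alone was detected on every array (log2 difference 0.34, standard error 0.23, adjusted p = 0.578 from limma), with 0.14 without control replicate 1, 0.50 without control replicate 2, 0.037 with the local background and 0.059 without background correction. miR-122-5p, the most typical miRNA of hepatocytes, was detected on 3 arrays and miR-375, a miRNA of islets, on 1. miR-216a-5p was detected on 2 TGF-β arrays and 0 control arrays, and miR-122-3p, miR-802, miR-216b-5p and miR-217 on none.

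The list of miRNAs often described with TGF-β had 7 tested members, of which 2 were called higher, beside 2.61% of all miRNAs tested, and none lower. These were miR-181a-5p, with 97.2 ± 3.72 units in control and 222 ± 13.3 units after TGF-β, and miR-181b-5p, with 40.5 ± 2.05 and 98.1 ± 1.79 units (SD, n = 3 each). Their log2 differences were 1.19 and 1.28, and both calls held in 22 of 23 alternative tests. Both were lost with the local background and its offset (0.56 and 0.087). miR-143-3p had a difference of 1.57 (standard error 0.44, adjusted p = 0.0919 from limma) and passed the threshold in 6 of 23 alternative tests. It was at 1.03 without TGF-β replicate 2, 0.33 without background correction and 0.026 with the local background. This list too was chosen with these results known and is no independent evidence.

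**Figure D4:**
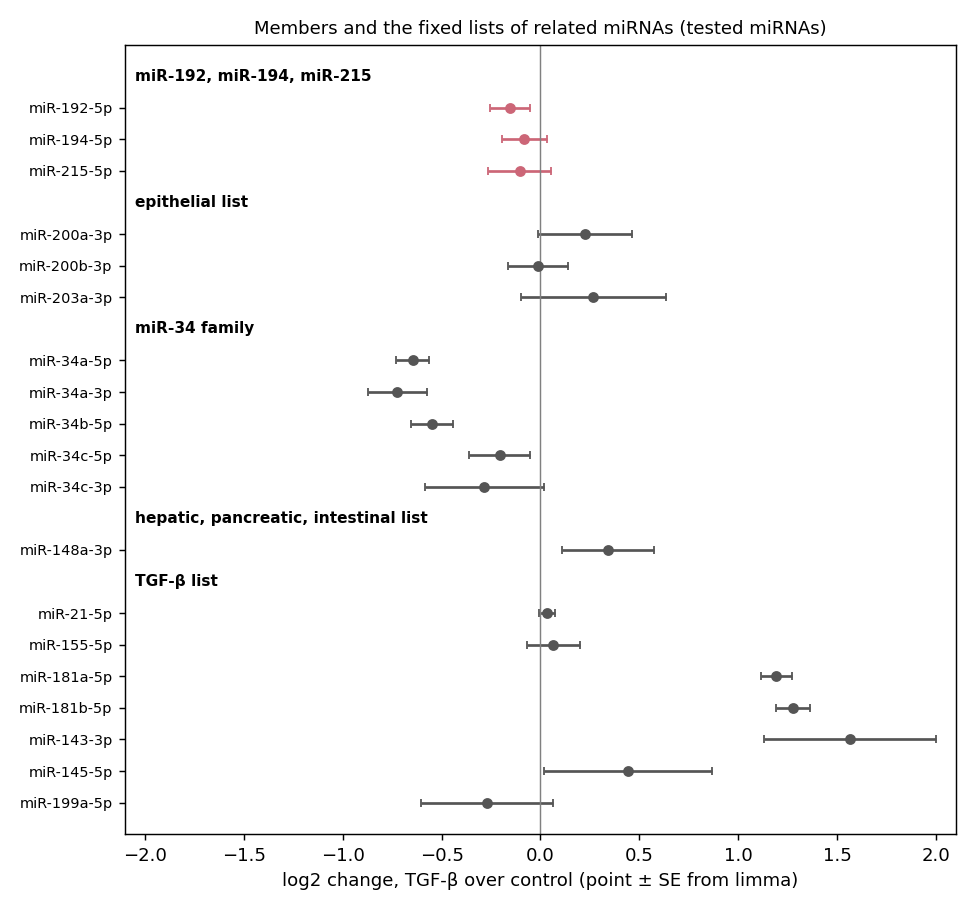
Log2 difference of TGF-β from control (horizontal axis, point ± standard error from limma, 3 arrays per group) for the 5p arms of miR-192, miR-194 and miR-215 (red) and for the tested members of the lists (grey). The 5p arms lie between -0.15 and -0.08, miR-34a-5p, miR-34a-3p and miR-34b-5p at -0.55 or lower, and miR-181a-5p and miR-181b-5p at 1.19 and 1.28.

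The miRNAs with a pattern most like that of each 5p arm were sought among the 1281 others detected on all arrays, by the Pearson correlation of normalized log2 values over the 6 arrays. For miR-192-5p these were miR-191-3p (r = 0.980), miR-663b (0.977) and miR-664b-5p (0.976), and 21 miRNAs had an r above 0.9, compared with 7 for miR-194-5p and 4 for miR-215-5p. For miR-194-5p they were miR-6722-5p (0.965), miR-361-3p (0.952) and miR-887-5p (0.937). For miR-215-5p they were miR-130a-3p (0.937), miR-27b-5p (0.922) and miR-598-3p (0.920). None of these 9 miRNAs was called in the comparison of the groups, with log2 differences of -0.30 to -0.05 and adjusted p-values of 0.412 to 0.933 from limma. The 5p arms correlated with each other at 0.53 (miR-192-5p and miR-194-5p), 0.71 (miR-192-5p and miR-215-5p) and 0.61 (miR-194-5p and miR-215-5p). Before normalization these correlations were 0.92, 0.86 and 0.76, when the points also share the brightness of the array.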

How the data were processed

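Panc-1 cells were profiled on 6 1-colour miRNA arrays (3D-Gene, Cy5). The authors deposited the scanner output, a linear median intensity for every spot and for its surroundings that was not normalized, and a table of processed intensities. The latter was rebuilt from the former to within rounding (largest difference 0.500): the blank mean was subtracted, the median of detected miRNAs was set to 25, and undetected values were left empty. No genome build or normalization is given in the sources used here.

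Here the mean of the blank spots, with 5% left out at each end, was subtracted, miRNA probes were quantile normalized, a floor of 1 unit was set, and the groups were compared on the log2 scale by limma 3.58.1 in R 4.3.3 (lmFit, then eBayes with the trend option). The local background was an alternative, because it rose with the spot signal (median 0.434 to 0.995 of the signal on spots above 200 units). That alternative used the normexp correction of limma and added an offset of 50 units. Benjamini-Hochberg adjustment was over the 1457 miRNAs with detection on each array of 1 or both groups. Flagged miRNA spots (3 in all) were missing. Groups followed the sample titles, and no array was left out. Pairs of arms were compared by 95% t intervals of within-array differences. The number of arrays limits the precision. The procedure was tested on simulated data with independent noise and no slide effect, so that test does not bear on the slide. Figures were drawn with matplotlib 3.10.9.

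Members, lists, background method and tests were chosen with earlier results of these data known. The names reported are the members, the other arm of miR-215, miRNAs sharing a seed, the list members and the 3 most correlated miRNAs per arm. Alternatives covered background, normalization, floor, filter, detection limit, test, replicate number and left-out arrays; the rescaled deposited values were added after seeing the data.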

Additional observations from a re-analysis of the deposited data

How the results depend on the processing

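No setting brought an arm of miR-192, miR-194 or miR-215 past an adjusted p of 0.05. The sign turned with the deposited values for miR-192-5p (0.0050), miR-194-5p (0.039) and miR-215-5p (0.039). With the local background it turned for miR-194-5p (6.9e-05) and miR-215-5p (0.011), and the cause was not tested in either case. When single arrays were left out, the differences ran from -0.22 to -0.12 for miR-192-5p, from -0.19 to -0.0057 for miR-194-5p and from -0.22 to -0.00066 for miR-215-5p. At a limit of 3 SD, 19 of the 30 member-array pairs were detected. The 58 calls among all miRNAs became 0 with the local background (35 at an unadjusted p under 0.05), 35 without normalization, 31 with the deposited values, 31 with detection on at least 1 array, 20 without a filter, 31 without the trend, and 17 with the methods' t-test (195 unadjusted), and ran from 26 to 51 with arrays left out, with 26 without TGF-β replicate 2, 33 without TGF-β replicate 3 and 35 without control replicate 2.

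Same-numbered arrays deviated from their group means with correlations of 0.13, 0.11 and -0.03 over 1282 miRNAs, so that the numbers were not taken as pairs. With the replicate number as a block, 61 miRNAs were called and no arm of the group, and the differences of miR-192-5p, miR-194-5p and miR-215-5p stayed at -0.15, -0.08 and -0.10. The block ended the call of miR-126-3p (adjusted p = 0.062) and brought miR-143-3p past the threshold (adjusted p = 0.037); no other call named here changed with it.

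Among the list members, the local background turned the sign of miR-203a-3p (-0.026), miR-34a-5p (0.080) and miR-34c-3p (0.0017). miR-200b-3p turned with median scaling (0.0022) and the deposited values (0.093). With arrays left out, miR-200b-3p ran from -0.092 to 0.059 and miR-200a-3p from -0.066 to 0.42.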
